A study of Rattus norvegicus with 30 samples.

Results

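The genes described here encode cytosolic heat shock proteins and their direct helpers. The list held 10 genes, namely Hspb1, Hspb8, Cryab, Hspa8, Hspa4, Hsph1, Hsp90aa1, Hsp90ab1, Dnajb1 and Bag3. A gene was followed through a probe set (a group of array probes read out as 1 value) that is annotated to it alone, and where there were several, through the one with the highest mean over all arrays. By this rule 8 of the 10 genes had a value, among the 10222 genes tested in the series. Hspa8 had 1 probe set, shared with Haus8l2, and Hsp90aa1 had 2, shared with Hsp90aa1-ps17, so no value is given for either. All 8 measured genes lay above the array's own median on all 30 arrays and passed the filter on low signals.

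The cells were hepatocytes of male Sprague Dawley rats, bought frozen, thawed, plated and treated on day 3 with methapyrilene, an antihistamine that causes liver tumours in rats. There were 6 groups of 5 arrays: DMSO vehicle, 3 uM methapyrilene and 100 uM methapyrilene, each harvested after 24 h or 48 h. The labels give the vehicle as 1% DMSO, while the treatment protocol uses that figure for the concentrated dosing solutions, so the final share in the medium is uncertain. The 5 replicates of a group were wells described as independent cultures. No animals are named and the age of the rats is not given in the sources used here, so a p-value here speaks of differences among wells, not animals.

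Heat shock proteins are chaperones: they bind unfolded or damaged proteins, keep them from clumping, and help them refold or pass them on for degradation. Small heat shock proteins hold unfolded chains, Hsp70 folds them with help from J-domain partners and exchange factors, and Hsp90 finishes the folding of many kinases and receptors. When unfolded proteins build up, heat shock factor Hsf1 is released from chaperones, forms trimers and binds heat shock elements, which are inverted repeats of a short GAA unit in the promoters of these genes. In liver, chemicals whose metabolites bind to proteins are known to engage this system.

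The element is known from the promoters of many of these genes, so their promoters are shown first. RefSeq (build GRCr8) promoter windows of 300 bases, from 250 before to 50 after the annotated start, were available for 8 of the 10 genes, and Cryab and Hsp90aa1 had no entry. A pair of inverted units was searched as GAANNTTC or TTCNNGAA, each of which reads the same on both strands. It was present in 6 of the 8 promoters, those of Hspb1, Hspb8, Hspa8, Hsph1, Dnajb1 and Bag3, and in 15.9% of all 33469 promoters of the same length. The letters were not in the windows of Hspa4 and Hsp90ab1. A run of 3 units, GAANNTTCNNGAA or TTCNNGAANNTTC, was in 2 of the 8 promoters, Hspa8 and Hsph1, and in 0.798% of all promoters. A match is a description of letters, not a bound site. The lines that follow give 120 bases from the windows of 5 measured genes that held a pair, 5′ to 3′ along the gene, with the matched units in capitals. They end at the base before the start for Hspb8, Hsph1 and Dnajb1, and run from position -170 to -51 relative to it for Hspb1 and Bag3.
Hspb1: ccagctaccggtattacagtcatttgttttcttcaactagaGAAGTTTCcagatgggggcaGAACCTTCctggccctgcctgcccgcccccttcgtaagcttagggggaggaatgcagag
Hspb8: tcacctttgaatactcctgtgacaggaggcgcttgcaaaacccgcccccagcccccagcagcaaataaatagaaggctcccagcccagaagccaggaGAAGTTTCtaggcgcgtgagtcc
Hsph1: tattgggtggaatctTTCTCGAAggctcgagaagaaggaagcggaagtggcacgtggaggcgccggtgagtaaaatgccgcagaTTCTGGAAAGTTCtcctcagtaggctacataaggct
Dnajb1: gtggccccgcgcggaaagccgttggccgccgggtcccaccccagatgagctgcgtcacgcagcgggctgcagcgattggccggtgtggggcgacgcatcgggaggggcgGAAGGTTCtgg
Bag3: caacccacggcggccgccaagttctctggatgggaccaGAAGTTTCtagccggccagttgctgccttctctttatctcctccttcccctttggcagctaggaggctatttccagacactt
The Hspb1 stretch is chr12:26432352-26432471 on the minus strand and holds separate pairs that begin 129 and 109 bases before the start. The Hspb8 stretch is chr12:45837188-45837307 on the plus strand, inside the annotated gene because the promoter table takes a later start, and its pair begins 23 bases before that start. The Hsph1 stretch is chr12:10427248-10427367 on the plus strand. It holds a pair that begins 105 bases before the start and a run of 3 units that begins 36 bases before it, in which 2 pairs overlap. The Dnajb1 stretch is chr19:41431142-41431261 on the minus strand, with a pair that begins 11 bases before the start, and a second pair begins 18 bases after the start, outside the printed stretch. The Bag3 stretch is chr1:192533290-192533409 on the plus strand and its pair begins 132 bases before the start.

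The values are MAS5 signals, array intensities on a linear scale that the authors deposited, with array medians from 362 to 471. On replicates 1, 2 and 3 of 3 uM at 24 h the beta-actin control ratio, 3′ probe set signal over 5′ probe set signal and a sign of RNA or labelling quality, was 3.93 to 5.30, against 2.34 to 3.43 on the other 27 arrays. Calls in that group are given with and without these 3 arrays. All 9 hepatocyte markers with a probe set lay above the median on all 30 arrays. Of the 12 markers of stellate cells, 6 lay under the median on every array, as did 4 of 10 for Kupffer cells and leukocytes, 3 of 6 for endothelial cells and 3 of 5 for cholangiocytes. At 100 uM, 4 of the 9 hepatocyte markers (Apob, Fgb, Hnf4a and Tat) fell at 24 h and 2 (Apob and Tat) at 48 h. Of all genes, 15.8% and 14.5% were called lower at these times. The median log2 change of the 9 markers was -0.052 at 24 h and -0.11 at 48 h. The summed signal of the Kupffer and leukocyte list lay below the DMSO range at 100 uM, with 9031 to 11056 against 13054 to 15449 at 24 h and 6071 to 9060 against 11377 to 13844 at 48 h. Of that list Cd14 alone lay above the median on all arrays. The summed cholangiocyte list lay above the DMSO range at 24 h, with 11090 to 11967 against 9925 to 11037. At 48 h it lay below that range, with 11063 to 12023 against 12600 to 13594. Only 2 genes of this list passed the filter, and Epcam alone lay above the median on all arrays. At 24 h 1 of the 2 was called higher and 0 lower, but their median log2 change was -0.47, opposite to the sum. At 48 h 2 were called lower, with a median of -0.82. Of the stellate list, whose summed signal overlapped between 100 uM and DMSO at both times, Des rose at 48 h (0.58, adjusted p = 0.0281). The part of other cell types in the results on heat shock genes was not tested.

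At 100 uM, 6 of the 8 measured genes rose at both times: the small heat shock proteins Hspb1 and Hspb8, the Hsp110 chaperone Hsph1, the Hsp90 gene Hsp90ab1, the J-domain protein Dnajb1 and the exchange factor Bag3. The rises were modest, from 1.25-fold to 1.56-fold at 24 h and from 1.16-fold to 1.72-fold at 48 h. None of the 8 fell on the probe set used for each gene. The dimmer probe set of Hsph1 passed at neither time, and that of Dnajb1 at 24 h only. A gene was called where limma's p-value, adjusted by Benjamini-Hochberg over the 10222 genes of the comparison, was under 0.05, and all tests were two-sided. Of all genes tested, 19.8% were called higher and 15.8% lower at 24 h, and 18.9% higher and 14.5% lower at 48 h. The median log2 change of the 8 genes was 0.42 at 24 h, against 0.043 over all genes, and 0.31 at 48 h, against 0.049. In the 6 called genes all 5 treated arrays lay above all 5 DMSO arrays at each time, as they did for 14.5% of all genes at 24 h and 15.8% at 48 h. In bulk RNA fewer cells of a type and less RNA per cell cannot be told apart.

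**Figure D1:**
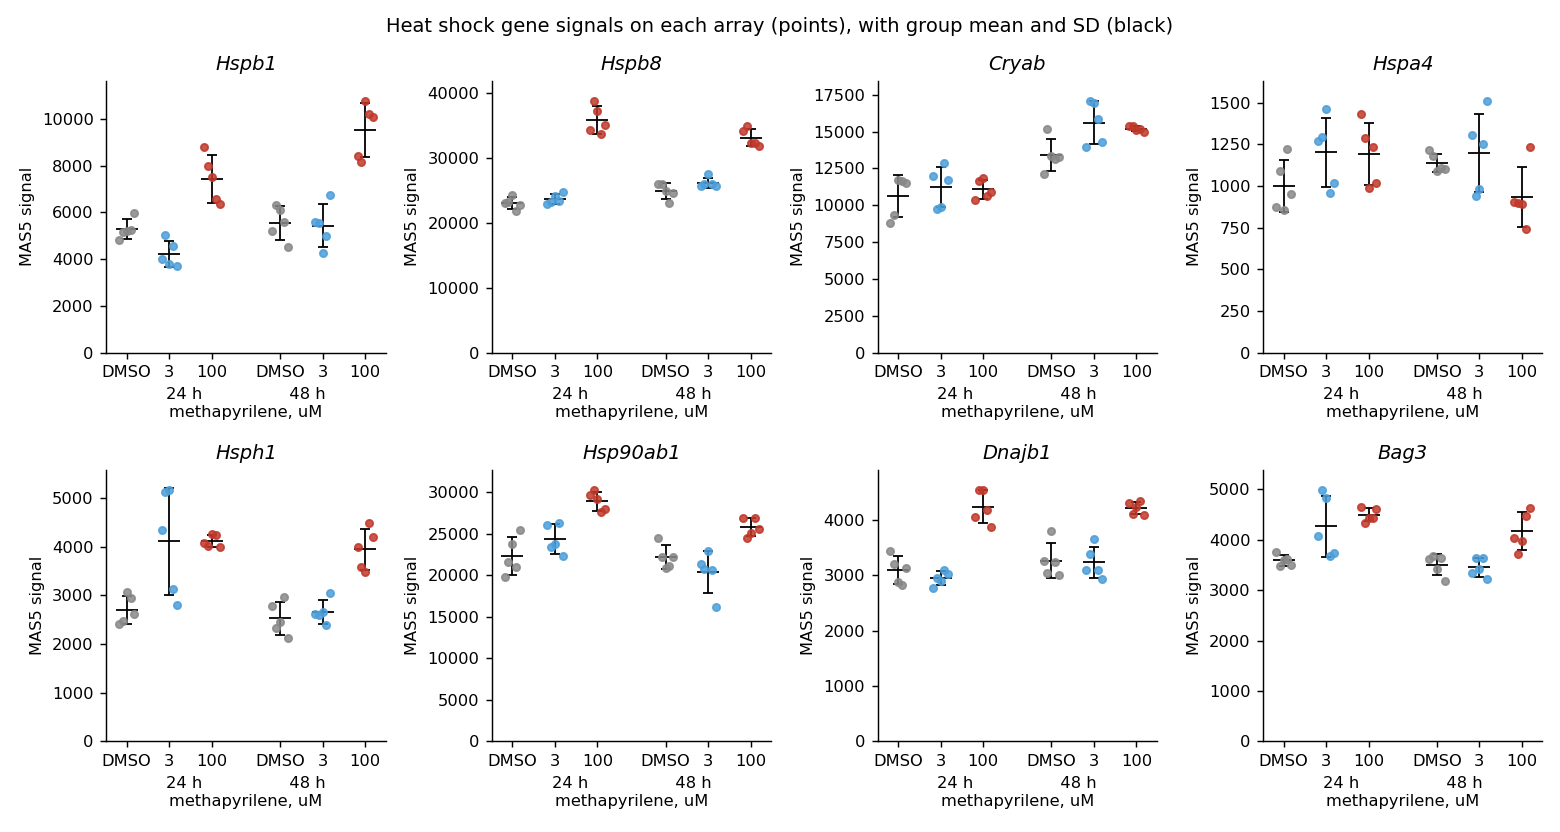
MAS5 signal (linear scale, from 0) of the 8 measured heat shock genes on each of the 30 arrays, by dose of methapyrilene and time, with 1 panel per gene, 1 point per array (grey DMSO, blue 3 uM, red 100 uM) and the group mean and SD in black (n = 5). The 100 uM arrays lie above the DMSO arrays of the same time for Hspb1, Hspb8, Hsph1, Hsp90ab1, Dnajb1 and Bag3, and overlap them for Cryab and Hspa4.

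Among the small heat shock proteins, Hspb1 (Hsp27; gene ID 24471, chr12:26430640-26432301) binds unfolding proteins and actin. At 24 h its 5 DMSO arrays read 4828, 5159, 5219.99, 5249.95 and 5984, and the 100 uM arrays 8812, 7979.7, 7510.4, 6557 and 6341. At 48 h the DMSO arrays read 5189, 6300.1, 6093, 5583 and 4499, and the 100 uM arrays 8407.5, 8156, 10763.5, 10224 and 10098.5. Every 100 uM array was above every DMSO array at its time. The log2 change was 0.49 ± 0.11 (SE, n = 5 per group, limma, adjusted p = 0.000646) at 24 h and 0.79 ± 0.11 (adjusted p = 6.73e-07) at 48 h, a rise of 1.72-fold at the later time. The difference between these changes was 0.30 ± 0.16 (adjusted p = 0.475), which did not pass the test.

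Hspb8 (Hsp22; gene ID 113906, chr12:45835899-45866449) pairs with Bag3 to send misfolded proteins to autophagy. Its probe set read 23123, 23224, 24325, 21845 and 22757.5 on the DMSO arrays at 24 h and 34297, 38815, 37356, 33805 and 35147 at 100 uM. At 48 h it read 25968, 26094.5, 24882, 23081.5 and 24713 in DMSO and 34164, 34944.5, 32429, 32415 and 31851 at 100 uM. The groups were wide apart at both times, with a gap larger than the range of either group. Hspb8 changed by 0.64 ± 0.047 on the log2 scale (adjusted p = 9.01e-13) at 24 h and 0.41 ± 0.047 (adjusted p = 1.55e-08) at 48 h. A second, dimmer Hspb8 probe set also rose, by 0.91 ± 0.096 (adjusted p = 3.94e-09) and 0.61 ± 0.096 (adjusted p = 7.11e-06) on the log2 scale. On the brighter probe set the change was smaller at 48 h than at 24 h by 0.23 ± 0.067 on the log2 scale, with an adjusted p of 0.0857, so this difference did not pass.

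Cryab (alpha B-crystallin; gene ID 25420, chr8:59989885-59995532) is a small heat shock protein of lens and muscle. Its signal in DMSO was 10607 ± 1423 (SD, n = 5) at 24 h and 13409 ± 1098 at 48 h, and at 100 uM it was 11076 ± 642 and 15181 ± 162. The groups overlapped at both times. The log2 change at 100 uM was 0.071 ± 0.081 (adjusted p = 0.545) at 24 h and 0.18 ± 0.081 (adjusted p = 0.0831) at 48 h. The 48 h value passed with quantile normalization (adjusted p = 0.0342), with a fit on the compared groups alone (0.00815), with array weights (0.0475) or without replicate 2 of DMSO at 48 h (0.0367).

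Of the Hsp70-related chaperones, Hsph1 (Hsp110; gene ID 288444, chr12:10427368-10446602) acts as an exchange factor for Hsp70 and helps to pull protein clumps apart. Its arrays read 2411, 2467, 3067, 2948 and 2624 in DMSO at 24 h and 4075, 4015, 4255, 4247 and 4004 at 100 uM. At 48 h they read 2791, 2334, 2448, 2962 and 2129 in DMSO and 4001, 3587, 3480.3, 4481 and 4196 at 100 uM. The 100 uM arrays lay above all DMSO arrays at both times. Hsph1 changed by 0.61 ± 0.12 on the log2 scale (adjusted p = 0.000139) at 24 h and 0.64 ± 0.12 (adjusted p = 7.74e-05) at 48 h. A second, much dimmer Hsph1 probe set gave 0.31 ± 0.18 (adjusted p = 0.200) and 0.12 ± 0.18 (adjusted p = 0.671), which did not pass. With the mean of both probe sets the 48 h change was 0.38 (adjusted p = 0.0209).

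Hspa4 (gene ID 266759, chr10:37908866-37951994), another gene of the Hsp110 family, had the largest standard error of the 8. Its signal was 1000.1 ± 156 (SD, n = 5) in DMSO and 1193 ± 188 at 100 uM after 24 h, and 1139 ± 54.8 and 935 ± 181 after 48 h. The log2 change was 0.25 ± 0.14 (adjusted p = 0.172) at 24 h and -0.30 ± 0.14 (adjusted p = 0.0990) at 48 h, and the groups overlapped at both times. The 48 h value passed with arrays centred on their median (-0.35, adjusted p = 0.0377) or without replicate 5 of the 100 uM group (-0.41, adjusted p = 0.0258).

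Hsp90ab1 (gene ID 301252, chr9:22930249-22935929) encodes the constitutive cytosolic Hsp90. It read 19727, 21573, 23785, 21021 and 25402 in DMSO at 24 h and 29668, 30259, 29154, 27544 and 27953.5 at 100 uM. At 48 h it read 24472, 22164, 20867, 21154 and 22158 in DMSO and 26867, 24477, 25093.5, 26912 and 25604 at 100 uM. The groups did not overlap at either time, and at 48 h the lowest treated array was just above the highest DMSO array. The log2 change was 0.38 ± 0.072 (adjusted p = 7.72e-05) at 24 h and 0.22 ± 0.072 (adjusted p = 0.0172) at 48 h. A second probe set gave 0.35 ± 0.096 (adjusted p = 0.00511) and 0.37 ± 0.096 (adjusted p = 0.00313).

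Bag3 (gene ID 293524, chr1:192533460-192557281) is an Hsp70 exchange factor that links Hspb8 and Hsp70 to autophagy. It read 3758, 3482, 3607, 3627 and 3494 in DMSO at 24 h and 4653, 4340.4, 4442, 4432 and 4602 at 100 uM. At 48 h it read 3618, 3685, 3416, 3636 and 3187 in DMSO and 4044, 3713, 3971, 4471 and 4635 at 100 uM. The groups did not overlap, although at 48 h the lowest treated array was just above the highest DMSO array. Bag3 changed by 0.32 ± 0.073 on the log2 scale (adjusted p = 0.000659) at 24 h and 0.25 ± 0.073 (adjusted p = 0.00866) at 48 h. With arrays centred on their median the 48 h calls of Bag3 and Hsp90ab1 were lost (0.20, adjusted p = 0.102, and 0.17, adjusted p = 0.236). In that scaling 44.6% of the genes called at 48 h were called higher, against 56.6% as deposited.

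Dnajb1 (Hsp40; gene ID 361384, chr19:41427453-41431141) delivers clients to Hsp70 and takes part in the feedback that switches Hsf1 off. Its brighter probe set read 3434, 3214, 2872, 2823 and 3127 in DMSO at 24 h and 4063, 4537, 4548, 4183 and 3868 at 100 uM. At 48 h it read 3268, 3045, 3798, 3239 and 2999 in DMSO and 4303, 4117, 4240.5, 4341 and 4099 at 100 uM. The treated arrays were higher without overlap at both times, with a log2 change of 0.46 ± 0.069 (adjusted p = 2.59e-06) at 24 h and 0.37 ± 0.069 (adjusted p = 5.85e-05) at 48 h.

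The dimmer Dnajb1 probe set, with a mean signal of 3234 against 3502 for the brighter one, did not follow it at 48 h. It read 2538, 3246, 3083, 2813 and 2859.5 in DMSO and 3288, 3412, 3322, 3477.5 and 3421 at 100 uM after 24 h, with no overlap and a log2 change of 0.22 ± 0.069 (adjusted p = 0.0112). At 48 h it read 3386, 3772, 3189, 3539 and 3909 in DMSO and 3299, 2989, 3078, 3240.1 and 3125 at 100 uM, with the treated arrays mostly lower. The log2 change there was -0.17 ± 0.069 (adjusted p = 0.0508), the opposite sign to the brighter probe set. Its DMSO signal was higher at 48 h than at 24 h by 0.29 ± 0.069 (adjusted p = 0.00882). With the mean of both probe sets as the gene's value, the 48 h change of Dnajb1 was 0.099 (adjusted p = 0.127) and was not called. The rise of Dnajb1 at 48 h therefore rests on 1 of its 2 probe sets.

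**Figure D2:**
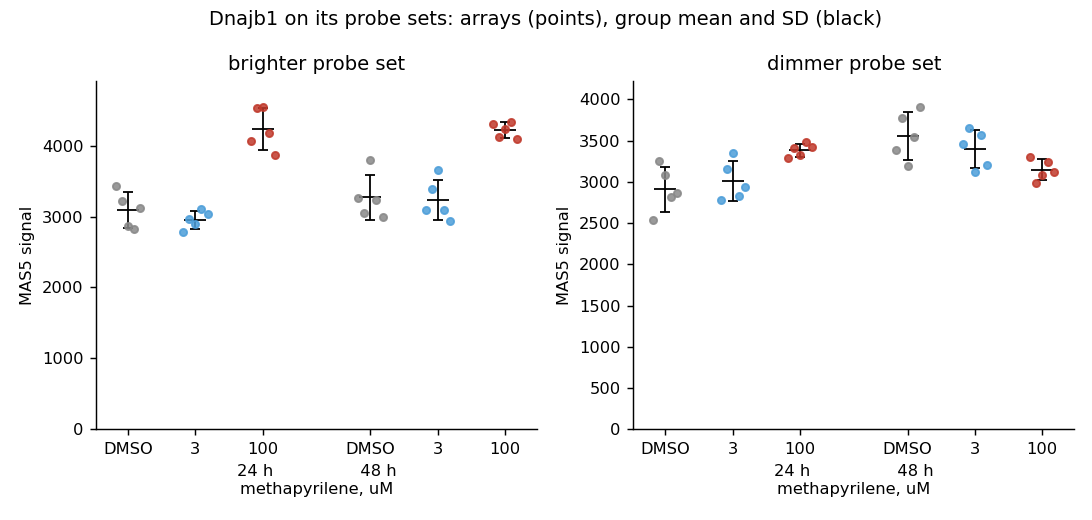
MAS5 signal (linear scale, from 0) of the brighter (left) and dimmer (right) Dnajb1 probe sets on each array, by dose and time, with 1 point per array (grey DMSO, blue 3 uM, red 100 uM) and the group mean and SD in black (n = 5). At 48 h the 100 uM arrays lie above DMSO on the brighter probe set and mostly below it on the dimmer one, where they read 2989 to 3299.

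The lower dose gave few changes in these genes. At 3 uM and 24 h, Hsph1 was the single member called, and no member was called lower. Of all genes, 2.99% were called higher and 1.22% lower in this comparison, which shares its DMSO arrays with the 100 uM comparison. No member's 3 uM arrays were clear of the DMSO arrays, against 1.36% of all genes that were clear and higher and 0.704% clear and lower.

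The 3 uM arrays of Hsph1 at 24 h read 4349.9, 5122, 5172, 3139.8 and 2803, so replicates 1, 2 and 3 were high and replicates 4 and 5 were near the DMSO range of 2411 to 3067. The log2 change was 0.57 ± 0.12 (adjusted p = 0.00967). The 3 high arrays are those with the raised beta-actin ratio of 3.93, 5.10 and 5.30, against 2.91 and 3.28 on replicates 4 and 5. With replicates 4 and 5 alone the change was 0.14 (adjusted p = 0.743), and with the beta-actin ratio as a covariate it was 0.29 (adjusted p = 0.706). The call was also lost without replicate 2 (adjusted p = 0.0553) or without replicate 3 (adjusted p = 0.0647), and with the mean of both probe sets (0.0518).

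Bag3 showed the same split at 3 uM and 24 h, with 4084, 4991 and 4831 on replicates 1, 2 and 3, and 3676 and 3744 on replicates 4 and 5. Its change was 0.24 ± 0.073 (adjusted p = 0.0571) on all 5 arrays and 0.047 (adjusted p = 0.908) on replicates 4 and 5. It was called without replicate 4 (adjusted p = 0.00985), without replicate 5 (0.0112) or with array weights (0.000584). The dimmer probe sets of Hspb8 and Hsp90ab1 went the other way on the same arrays. That of Hspb8 read 6553, 6717 and 6417 on replicates 1, 2 and 3 and 10703 and 9413 on replicates 4 and 5. That of Hsp90ab1 read 9117, 8027 and 7577 on replicates 1, 2 and 3 and 13369.7 and 11414 on replicates 4 and 5. The 3 arrays thus read high on some probe sets of these genes and low on others. The brighter probe set of Hspb8 read 22893 to 24770.5 over all 5 arrays, with no such split.

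Hspb1 at 3 uM and 24 h read 3991, 5033, 3772, 4567 and 3703. All but 1 of these arrays lay below every DMSO array, and low values occurred among replicates 1, 2 and 3 as well as on replicate 5. The log2 change was -0.33 ± 0.11 (adjusted p = 0.0696), and it was -0.36 (adjusted p = 0.415) with replicates 4 and 5 alone. It passed without replicate 4 (-0.37, adjusted p = 0.0330) or with array weights (-0.30, adjusted p = 0.0472).

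**Figure D3:**
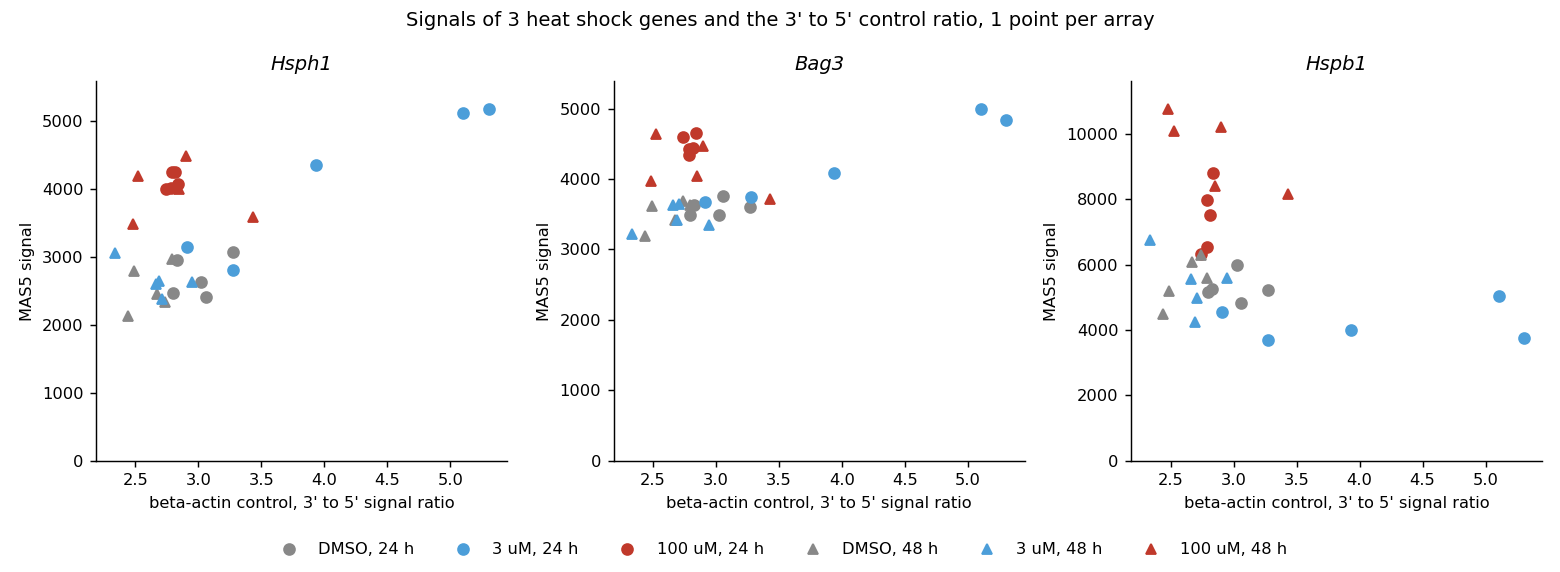
MAS5 signal (linear scale, from 0) of Hsph1, Bag3 and Hspb1 against the beta-actin control ratio (3′ signal over 5′ signal), with 1 point per array (circles 24 h, triangles 48 h, colours by dose). The 3 arrays of 3 uM at 24 h with ratios of 3.93 to 5.30 are high for Hsph1 and Bag3, and read 3772 to 5033 for Hspb1.

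At 3 uM and 48 h, limma called 0 of the 8 genes, and 0.0196% of all genes were called higher and 0.0196% lower. Only Cryab had an unadjusted p under 0.05, with 15613 ± 1454 (SD, n = 5) against 13409 ± 1098 in DMSO, a log2 change of 0.22 ± 0.081 and an adjusted p of 0.909. The changes of the 8 genes ran from -0.13 to 0.22, and their 95% intervals together spanned -0.28 to 0.38. A change of over 0.38 in either direction at 48 h thus lay outside all of these intervals, which leave room for smaller ones.

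**Figure D4:**
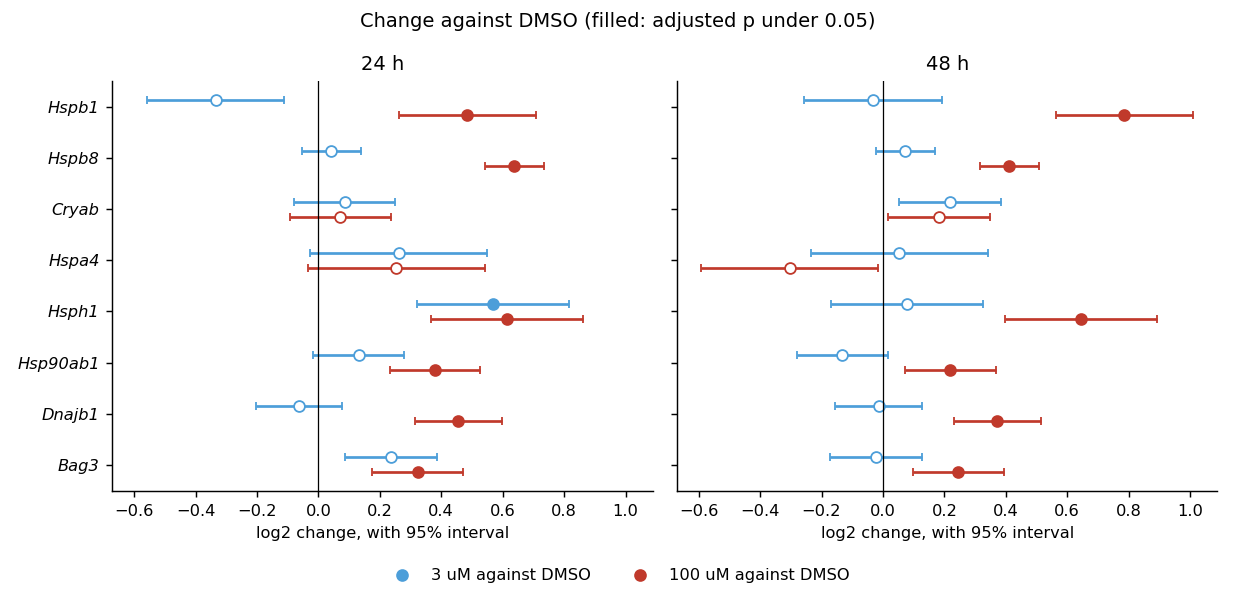
Log2 change against DMSO of the same time for the 8 measured genes, with 95% intervals, at 24 h (left) and 48 h (right). Blue points are 3 uM, red points 100 uM, and filled points have an adjusted p under 0.05: 6 genes are filled at 100 uM at each time, Hsph1 alone at 3 uM and 24 h, and none at 3 uM and 48 h.

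The doses were also compared directly, which uses the same 100 uM arrays again. At 48 h, 6 of the 8 genes were higher at 100 uM than at 3 uM, where 16.2% of all genes were called higher, 12.6% were called lower and 12.9% were clear of overlap and higher. All 6 were clear of overlap. Hspb1 differed by 0.82 ± 0.11 on the log2 scale (adjusted p = 4.47e-07) and Hsph1 by 0.57 ± 0.12 (adjusted p = 0.000494). The other 4 were Hspb8, Hsp90ab1, Dnajb1 and Bag3, with differences from 0.27 to 0.39. With the mean of both probe sets the call of Hsph1 was lost (0.30, adjusted p = 0.0780), and the difference of Dnajb1 shrank to 0.14 (adjusted p = 0.0330). On the dimmer probe sets alone, Hsph1 differed by 0.039 (adjusted p = 0.904) and Dnajb1 by -0.11 (adjusted p = 0.261). Hspa4 was lower by 0.36 on the log2 scale without passing (adjusted p = 0.0554), and it passed in several alternatives, such as without replicate 5 of the 100 uM group (-0.46, adjusted p = 0.0139).

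At 24 h, 4 of the 8 genes were higher at 100 uM than at 3 uM, and all 4 were clear of overlap, against 19.8% of all genes called higher, 19.1% called lower and 11.1% clear of overlap and higher. Hspb1 differed by 0.82 ± 0.11 (adjusted p = 2.72e-07), Hspb8 by 0.60 ± 0.047 (adjusted p = 5.28e-12), Dnajb1 by 0.52 ± 0.069 (adjusted p = 2.49e-07) and Hsp90ab1 by 0.25 ± 0.072 (adjusted p = 0.00594). The call of Hsp90ab1 was lost with quantile normalization (adjusted p = 0.0794) and with arrays centred on their median (adjusted p = 0.192). With the mean of all probe sets the difference of Hsp90ab1 was larger, at 0.43 (adjusted p = 4.13e-06), and Dnajb1 differed by 0.35 (adjusted p = 9.59e-07). The Hsp90ab1 mean includes its dimmer probe set, which alone differed by 0.62 and read low on replicates 1, 2 and 3 of 3 uM. With arrays centred on their median, 34.5% of all genes called were higher, against 50.9% as deposited. Hsph1 and Bag3 differed by 0.045 ± 0.12 and 0.087 ± 0.073 and were not called, with replicates 1, 2 and 3 of 3 uM in the group. With replicates 4 and 5 alone, Hsph1 differed by 0.47 (adjusted p = 0.00206) and Bag3 by 0.28 (adjusted p = 0.00632). In that fit Hspb1 (0.84), Hspb8 (0.57), Dnajb1 (0.46) and Hsp90ab1 (0.26) kept their calls. The shares of all genes given above belong to the fit on all arrays, not to this one.

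Time in culture alone was compared in the DMSO groups. Cryab was the single member that differed on the probe set used for each gene. It was higher at 48 h than at 24 h by 0.35 ± 0.081 on the log2 scale (adjusted p = 0.00745), with 2.57% of all genes called higher and 1.91% lower. Its 24 h DMSO arrays read 8808, 9317, 11743, 11633 and 11533, and those at 48 h 12131, 15168, 13353, 13145 and 13247, with no overlap, as for 3.38% of all genes. The call was lost with arrays centred on their median (adjusted p = 0.0774). The changes of the other 7 genes between the DMSO groups did not pass, and for Hspb1 the difference was 0.059 ± 0.11. The dimmer Dnajb1 probe set was higher at 48 h by 0.29 ± 0.069 (adjusted p = 0.00882). With the mean of its probe sets Dnajb1 was called (0.19, adjusted p = 0.0237).

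The effect of 100 uM was compared between 24 h and 48 h by an interaction term. On the probe sets used for each gene, limma called 0 of the 8, with 0.616% of all genes called higher and 1.04% lower. Hspb8 and Hspa4 (-0.56, adjusted p = 0.211) had an unadjusted p under 0.05, and Hspb8 was called with array weights. The dimmer Dnajb1 probe set was called in a fit of all probe sets (-0.40 ± 0.097, adjusted p = 0.0314).

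Ordered by mean signal over the 6 groups, Hspb8, Dnajb1, Hsp90ab1, Hspb1 and, with 1 exception, Hsph1 and Bag3 had both 100 uM groups on top. For Hspb1 the order was 100 uM at 48 h (9530 ± 1170, SD, n = 5), 100 uM at 24 h, and then DMSO at 48 h, 3 uM at 48 h and DMSO at 24 h, which differed by less than their spread, with 3 uM at 24 h (4213 ± 570) last. For Hsph1 and Bag3 the exception was 3 uM at 24 h, which lay between the 100 uM groups with a wide SD of 1102 and 612. For Hspb8 the lowest neighbours, 3 uM and DMSO at 24 h, differed by less than their spread. For Dnajb1 the 100 uM groups (4240 ± 298 and 4220.2 ± 109) differed by less than their spread, as did the other 4 groups from their neighbours, and for Hsp90ab1 the same held for all neighbours but 100 uM at 24 h and at 48 h. For Cryab all 3 groups at 48 h lay above all 3 groups at 24 h, and for Hspa4 neighbours in the order all differed by less than their SD. The 6 group means spanned 1.18 on the log2 scale for Hspb1, 0.71 for Hsph1, 0.64 for Hspb8, 0.56 for Cryab, 0.52 for Hsp90ab1 and for Dnajb1, 0.38 for Bag3 and 0.37 for Hspa4.

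For the 6 genes that spanned at least 0.5, the genes with the closest pattern of 6 group means were found among all tested genes, by the root mean square of the log2 difference after each gene was centred on its own mean. Nearest to Hspb1 were Ccdc61 (0.046), Hilpda (0.075) and Cdhr1 (0.088). Nearest to Hspb8 were Tmod3 (0.031), Apex1 (0.034) and Slu7 (0.038), and to Hsph1 they were Slc20a1 (0.047), Ipo5 (0.056) and Xpo4 (0.068). For Dnajb1 they were Commd8 (0.022), Creb3 (0.023) and Cetn3 (0.029). For Hsp90ab1 they were Dusp5, Fam177a1 and Lamc3 (0.024 to 0.025), and for Cryab Ralgdsl1, Zfp329 and Ddx39b (0.034 to 0.050). Ccdc61 and the 3 genes nearest to Hsp90ab1 and to Cryab did not pass at 100 uM against DMSO at either time. None of these nearest genes is another member.

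The other genes of the chaperone network were read from lists of known members, at 100 uM against DMSO, where the median over all genes was 0.043 at 24 h and 0.049 at 48 h. The counts of every list stand against 19.8% of all genes called higher and 15.8% lower at 24 h, and 18.9% higher and 14.5% lower at 48 h. Quantile normalization and arrays centred on their median were tried for these lists after the data were seen. Of the heat shock factors and their regulators, Hsf2 rose by 0.22 ± 0.066 (adjusted p = 0.00846) at 24 h and 0.24 ± 0.066 (adjusted p = 0.00421) at 48 h, and the other 3 of the 4 measured did not pass. No gene of this list was called with arrays centred on their median. Of 7 further cytosolic heat shock genes, Hspa14, an Hsp70 at the ribosome, rose by 0.30 ± 0.096 (adjusted p = 0.0126) at 24 h, a call lost with arrays centred on their median, and Hspb7 by 0.90 ± 0.29 (adjusted p = 0.0166) at 48 h, and none fell. Hspa1a, the classical inducible Hsp70, was looked up after its value was seen: it gave 0.25 ± 0.10 (adjusted p = 0.0593) and 0.057 ± 0.10 (adjusted p = 0.727). It is uncertain because of its near-identical copy Hspa1b. The medians of these 7 genes were 0.25 at 24 h and 0.074 at 48 h.

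Of the cochaperones of Hsp70 and Hsp90, 16 of 24 rose and 1 fell at 24 h, and 13 rose and none fell at 48 h, with medians of 0.22 and 0.19. Over all genes 19.8% and 18.9% rose. In the centred arrays 10 rose at 24 h and 7 at 48 h, while 14.2% and 12.2% of all genes rose. Ppid, the Hsp90-binding cyclophilin 40, rose by 0.84 ± 0.061 (adjusted p = 6.15e-13) at 24 h and 1.00 ± 0.061 (adjusted p = 7.09e-15) at 48 h. Chordc1, an Hsp90 partner, rose by 0.60 at each time. Dnajb4, a J-domain protein close to Dnajb1, rose by 0.48 and 0.20, and Bag1 by 0.28 and 0.41. Fkbp5, an Hsp90 partner of the glucocorticoid receptor, was the gene that fell at 24 h, by 0.25 on the log2 scale (adjusted p = 0.00454).

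All 8 subunits of the CCT chaperonin, which folds actin and tubulin in the cytosol, rose at 100 uM at both times, with medians of 0.31 and 0.38. In the centred arrays 6 rose at 24 h and 7 at 48 h, while 14.2% and 12.2% of all genes rose. Cct4 rose by 0.43 ± 0.067 and 0.50 ± 0.067, and Cct2 by 0.30 ± 0.054 and 0.45 ± 0.054. Cct5 rose by 0.31 and 0.35 and Cct8 by 0.34 and 0.37. The spread of the list was narrow, and the lowest change at 24 h was 0.22.

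Of 14 endoplasmic reticulum chaperones 1 rose and 4 fell at 24 h, and 2 rose and 7 fell at 48 h, with medians of -0.079 and -0.24, against 15.8% and 14.5% of all genes that fell. After centring none rose, and 3 fell at 24 h and 7 at 48 h. In that scaling 29.8% of all genes were called at 24 h, with 14.2% higher, and 27.3% at 48 h, with 12.2% higher. Hsp90b1, the Hsp90 of that compartment, fell by 0.40 and 0.50 on the log2 scale, the isomerase P4hb by 0.26 and 0.46, Pdia4 by 0.23 and 0.34, and Pdia6 by 0.14 and 0.34. Dnajc3 rose at both times (0.21 and 0.20) and Sdf2l1 at 48 h (0.29). Of 9 mitochondrial chaperones 2 rose and 2 fell at 24 h, close to the shares of 19.8% and 15.8% over all genes, and 3 fell at 48 h, where 14.5% of all genes fell. Clpx fell by 0.58 and 0.43 and Trap1 by 0.31 and 0.22, and Hspd1 fell by 0.17 at 48 h, while Lonp1 (0.30) and Hspa9 (0.14) rose at 24 h.

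Among 6 genes of chaperone-assisted autophagy, the route that Bag3 and Hspb8 serve, 3 rose and 1 fell at 24 h and 2 rose at 48 h, against 19.8%, 15.8% and 18.9% of all genes. After centring 1 rose and 1 fell at 24 h and 1 rose at 48 h, while 14.2% and 12.2% of all genes rose. Gabarapl1 rose by 0.50 ± 0.047 and 0.35 ± 0.047, Tax1bp1 by 0.24 at each time, and the receptor Sqstm1 by 0.26 at 24 h. Optn fell by 0.23 at 24 h, a call lost with quantile normalization. At 3 uM and 24 h, where 3 arrays stand apart, 2.99% of all genes were called higher and 1.22% lower. There Hspa9, Trap1, Lonp1, Tax1bp1 and Optn were called higher and Cacybp lower, and no other gene of these lists was called. With replicates 4 and 5 alone, limma called 0 of these 6, with changes from -0.18 to 0.22 and adjusted p-values from 0.338 to 0.988. At 3 uM and 48 h limma called 0 genes of these lists, and 0.0196% of all genes higher and 0.0196% lower.

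**Figure D5:**
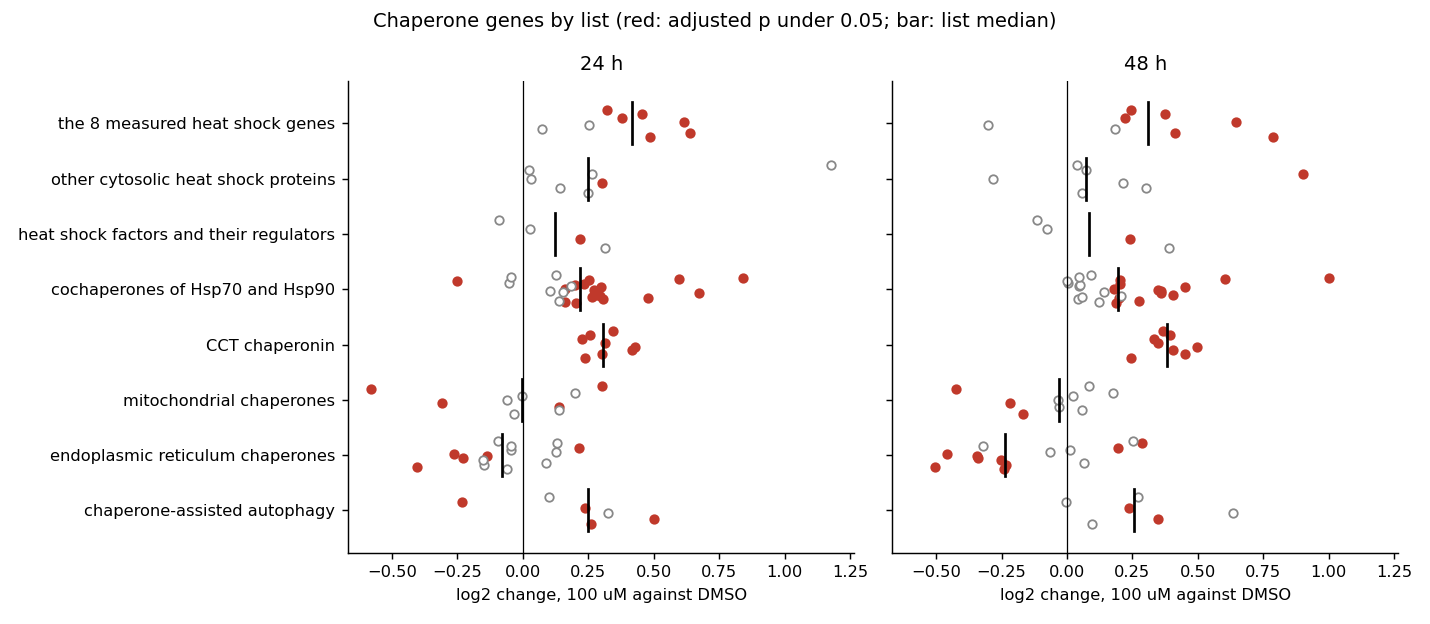
Log2 change at 100 uM against DMSO at 24 h (left) and 48 h (right) for each measured gene of the chaperone lists, with 1 point per gene (red: adjusted p under 0.05) and a black bar at the list median. The 8 CCT subunits are all red and above 0, with medians of 0.31 and 0.38, and the endoplasmic reticulum list lies mostly below 0 at 48 h, with a median of -0.24.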

How the data were processed

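RNA of 30 wells, 5 in each of 6 groups of dose and time, was labelled with biotin and read on rat expression arrays. Each deposited value is an intensity, a linear signal per probe set that the authors made with MAS5, per the submitters' processing notes; version and detection calls are not given in the sources used here. The number of arrays limits the precision.

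Of 31099 probe sets, 57 were controls, 20826 had 1 gene symbol in the platform annotation, 436 several and 9780 none; 20764 gene IDs matched the RefSeq table and 0 symbols changed. Signals were log2 transformed. Probe sets above their array's median on at least 5 arrays were kept, and the one with the highest mean log2 signal stood for its gene, which gave 10222 genes; a separate fit held all probe sets of 1 symbol past the filter (13530). limma 3.58.1 in R 4.3.3 fitted 6 group means to all 30 arrays (24 residual degrees of freedom, eBayes with trend), with 8 comparisons, Benjamini-Hochberg adjustment in each and calls at 0.05. Locations, identifiers and promoters are RefSeq's (GRCr8). Figures were drawn with matplotlib 3.10.9.

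The members, lists, tests and alternatives, including the use of replicates 4 and 5 alone, were chosen with earlier results of these data known. Named are the 10 members, up to 4 called genes per list by adjusted p, small counts in full, and the 3 nearest patterns of each gene whose group means span 0.5. Alternatives changed scaling, pseudocount (16), filter, probe set rule, variance model, arrays fitted, blocks, thresholds and each array in turn. Tested on simulated data for 100 uM against DMSO at 24 h (10222 genes, 200 changed), the fit recovered 70% of 1.5-fold and 94% of 2-fold changes with 3 false calls. In the measured data 35.7% of genes were called in that comparison, so these figures describe the simulated setting only.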

Additional observations from a re-analysis of the deposited data

Results flagged for a closer look

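Replicate 3 of 3 uM at 48 h read 27629 for Hspb8, away from the other 4 wells of its group, which read 25668 to 26045. It stood out by Dixon's test at the 95% level, and with 48 sets of 5 arrays checked, about 1 in 20 sets would do so by chance.

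The dimmer Dnajb1 probe set changed less at 48 h than at 24 h under 100 uM, by an interaction of -0.398418 on the log2 scale in limma's fit of all probe sets. It rose at 24 h and had the opposite sign at 48 h, while the brighter probe set of the same gene rose at both times.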

How the results depend on the processing

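Of 24 member results that passed in some comparison, 17 kept their call and direction under those of 43 alternatives with the same threshold that applied to them, 7 lost the call in at least 1, and 0 reversed. None of these alternatives used a dimmer probe set on its own. The opposite sign of the dimmer Dnajb1 probe set at 48 h is thus not counted as a reversal. Values that were not called changed sign in 42 cases. The number of members called at 3 uM and 24 h was 1 as analysed. It was 0 with the mean of all probe sets, with only the compared groups in the fit, with the beta-actin ratio as a covariate, with replicates 4 and 5 only, and at 0.05 with a change of at least 1.5-fold, it was 3 with array weights, and it ran from 0 to 3 when each array was left out in turn. Between the DMSO groups the count of 1 became 0 with arrays centred on their median, 2 with the mean of all probe sets and 0 at 1.5-fold. For the interaction, 0 became 1 with array weights. With at least 1.5-fold required, the counts at 100 uM against DMSO were 2 at 24 h and 2 at 48 h, and against 3 uM they were 2 at 24 h and 1 at 48 h. The counts in this paragraph describe the members alone and are not set against the share of all genes called under the same setting.

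Arrays fall in runs of 6 with 1 array of each group. With the run as a replicate block the members called in every comparison were the same 6, 6, 1, 0, 4, 6, 1 and 0, in the order 100 uM at 24 h and 48 h, 3 uM at 24 h and 48 h, 100 uM against 3 uM at 24 h and 48 h, DMSO over time and the interaction. Deviations of arrays of the same run correlated with a median of -0.0011 over 75 pairs, from -0.11 to 0.17. For arrays of other runs and other groups the median was -0.0010 over 300 pairs, from -0.18 to 0.15. The runs were taken from the array number alone, and a batch laid out otherwise was not tested. A main limit is the scaling, under which the 48 h calls of Hsp90ab1 and Bag3 changed. Of the 8 measured genes, 4 had a single probe set. At 100 uM against DMSO the dimmer Hsph1 probe set passed at neither time, and that of Dnajb1 at 24 h only. Further limits are wells rather than animals as replicates, and 3 arrays of 3 uM at 24 h that stand apart. Over all genes called at 3 uM and 24 h, 71.0% were higher as deposited, 61.1% with quantile normalization and 90.7% with arrays centred on their median.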
